A study of Mus musculus with 9 samples.

Results

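The E2F genes encode the transcription factors that time the entry of cells into DNA synthesis, and the 8 mouse genes E2f1 to E2f8 were taken by name from a table of 38215 genes. All 8 passed the filter on low counts, which left 14944 genes to test. RNA was measured in 9 libraries, 1 per mouse, in a study of Zrsr2 loss in a myeloproliferative neoplasm driven by Jak2V617F. The cells were LSK cells (Lineage-, Sca1+ and Kit+), the compartment of blood stem and early progenitor cells, taken from bone marrow of C57BL/6J mice at the terminal time point and sorted as positive for both GFP and mCherry. All 9 mice carried Jak2V617F and all had received tamoxifen. The 5 mice of the EV group (numbers 1 to 5) carried Jak2V617F alone, and the 4 mice of the sgZrsr2 group (numbers 1, 2, 3 and 5) carried Jak2V617F with sgZrsr2. The labels do not spell out EV or the prefix sg. The age of the mice, the driver of any recombinase and the share of cells with a Zrsr2 lesion are not given in the sources used here. The libraries held 23238264 to 45585531 expected counts each. The 2 shallowest were sgZrsr2 mice 1 and 2, at 23238264 and 25857723. They had 16188 and 16832 genes with a count, against 18380 to 19429 in the other libraries.

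As background, E2F1, E2F2 and E2F3 are activators of genes for DNA replication and are held inactive by the retinoblastoma protein until cyclin-dependent kinases phosphorylate it. E2F4 and E2F5 bind the related pocket proteins p107 and p130 and repress the same genes in resting cells. E2F6 lacks the pocket-binding region and represses through a Polycomb complex, and the atypical members E2F7 and E2F8 bind DNA without a DP partner and repress, among others, E2f1. ZRSR2 helps the minor spliceosome to recognise the 3′ splice site of U12-type introns, a rare class, and E2F genes are among those known to hold such introns.

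The intron class that Zrsr2 serves can be read in the sequence of one member, and it is shown for that reason. The annotated introns of the 8 genes numbered 85, and the first bases of 10 could be read from annotated transcripts that keep the intron: 1 of E2f1, 3 of E2f6, 5 of E2f7 and 1 of E2f8. One of the 10 began with the letters of the U12-type 5′ splice site. It lies in E2f6, at chr12:16820385-16822092 of GRCm38, plus strand, is 1708 bp long, and separates exons 4 and 5 of 7 of the coding transcript ENSMUST00000020908.8 within the coding part. Its ends are shown 5′ to 3′, with the searched letters of the 5′ splice site and of the branch site in capitals, as read from GENCODE M21.
E2f6 intron, first 12 bases: ATATCCTTccat
E2f6 intron, last 40 bases: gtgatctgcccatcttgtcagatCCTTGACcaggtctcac
The intron opens with AT and closes with AC, the ends of the rarer kind of U12-type intron. Over all genes, 42136 introns could be read in this way, and 184 of them (0.437%), in 154 genes, began with ATATCCTT or GTATCCTT. The last 40 bases could be read for 73 of the 184, and CCTTAAC or CCTTGAC stood in 25. The other 75 introns of the E2F genes were not read, so these letters may stand in more of them.

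E2F genes are also known as targets of E2F proteins, so the RefSeq promoter windows (GRCm38.p6, 250 bases before to 50 after a start) were searched for TTTCCCGC, TTTCGCGC, TTTGCCGC and TTTGGCGC on both strands. Windows were present for 6 of the 8 genes, and 3 of their 8 windows held such a site. The window of E2f1 belongs to a start 466 bp inside the annotated gene, and further windows of E2f2 and E2f3 lie 8388 and 1672 bp from the gene start, all 3 without a site. The site is in capitals in these stretches upstream of the start of E2f3 (chr13:29986064-29986089, minus strand) and of E2f7 (chr10:110745226-110745263, plus strand).
E2f3 promoter: tggtttgaaaagccgGCGGGAAAtct
E2f7 promoter: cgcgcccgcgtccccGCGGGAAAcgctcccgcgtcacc
Both carry GCGGGAAA, which is TTTCCCGC read from the other strand. It begins 11 bases before the start of E2f3 and 198 bases before that of E2f7. The start of E2f3 used here is at 29986063, outside the deposited gene coordinates given below, which end at 29985668. The site of E2f2 is TTTGGCGC, 39 bases after the start. Of all 32851 windows, 744 (2.26%) held one of these letters. A match is a description of letters and shows no binding.

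None of the 8 E2F genes passed the test between the groups, and E2f6 alone had a 95% interval of its log2 fold change that did not include 0. In edgeR's quasi-likelihood test, with p adjusted by Benjamini-Hochberg across the whole table, 0 of 14944 genes (0%) had an adjusted p under 0.05, and so 0 of the 8. DESeq2 gave 16 genes (0.107%) at that threshold, 0 of them E2F genes. At an unadjusted p under 0.05 the test gave 1024 genes (6.85%), among them 1 E2F gene, E2f6. DESeq2 and limma-voom with quality weights also gave E2f6 alone of the 8 at that level, where they gave 8.53% and 17.1% of all genes, while with sgZrsr2 mice 1 and 2 averaged its unadjusted p was 0.0718. Levels are given as counts scaled to library size (CPM). The groups overlapped in CPM for all 8, against 458 of all genes (3.06%) whose groups did not overlap. The mean was lower in sgZrsr2 for 6 members and higher for 2, beside 51.5% of all genes with a lower value. That split was not firm, since 4 to 6 members were lower over the 20 other settings, and E2f7 lay at a log2 fold change of 0.00. The RNA comes from a mixed population, so fewer cells of a type and less RNA per cell cannot be told apart.

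**Figure D1:**
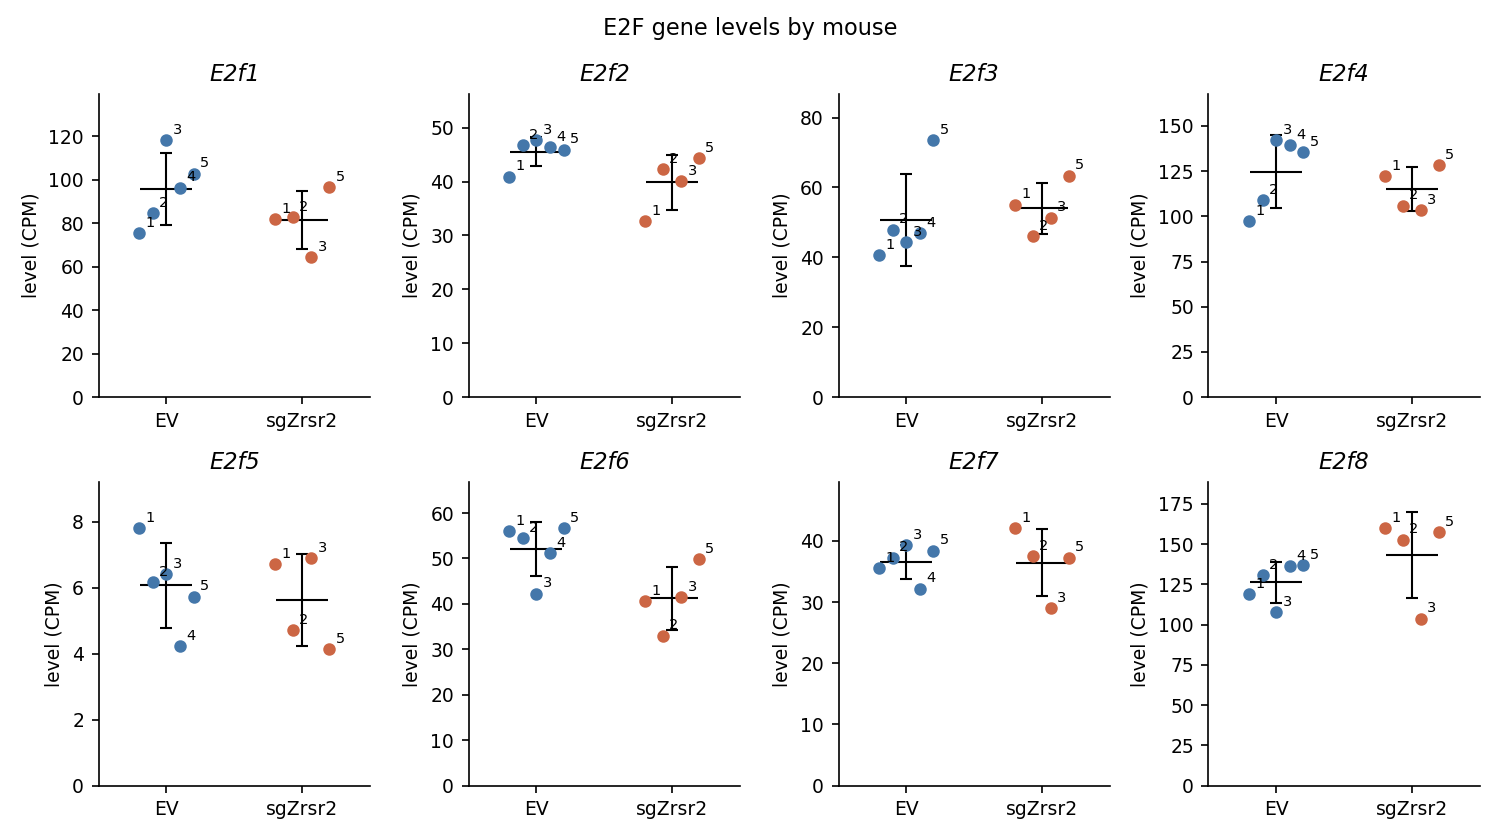
Level of each E2F gene in CPM (vertical axis from 0) in each mouse, with mouse numbers beside the points, EV in blue and sgZrsr2 in orange; the black lines give the mean and SD of 5 EV and 4 sgZrsr2 mice. The groups overlap in all 8 panels, and sgZrsr2 mouse 3 lies lowest for E2f1, E2f7 and E2f8.

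Of the targeted gene itself, Zrsr2 stood at 53.4 ± 4.94 CPM (SD, n = 5) in EV and 38.9 ± 5.30 CPM (SD, n = 4) in sgZrsr2, which is 72.8% of the EV mean. All 4 sgZrsr2 mice lay below all 5 EV mice (two-sided exact permutation p = 0.0159, which is the lower limit for groups of 5 and 4). The log2 fold change of Zrsr2 was -0.46 (SE 0.12) and the edgeR adjusted p was 0.714. LSK markers were present in every library: Kit at 247 to 632 CPM, Cd34 at 544 to 705 CPM and Ly6a, which encodes Sca1, at 14.8 to 49.3 CPM. Markers of other cell types were mixed. Cd3e (T cells), Gp6 (platelets) and Ly6g (neutrophils) were at most 0.0873 CPM, but the lymphoid gene Nkg7 was at 46.0 to 92.7 CPM, the megakaryocyte gene Itga2b at 109 to 319 CPM and the myeloid gene Lyz2 at 77.3 to 185 CPM. Erythroid, megakaryocyte and neutrophil genes were not even across libraries. Pf4, a megakaryocyte gene, stood at 22.0 CPM in EV mouse 5, 27.9 in sgZrsr2 mouse 3 and 37.4 in sgZrsr2 mouse 5, against 0.979 to 3.43 CPM in the other 6.

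Scaled by gene length, the members differed widely in abundance in these cells. In EV mice, E2f4 was the most abundant at 50.8 ± 8.25 CPM per kb of annotated exon (SD, n = 5) and E2f5 the least at 3.41 ± 0.72. E2f1 at 30.3 ± 5.25 and E2f8 at 23.2 ± 2.30 CPM per kb of exon came next, with spreads that met. E2f3 at 9.34 ± 2.42, E2f2 at 9.33 ± 0.55 and E2f6 at 9.20 ± 1.04 CPM per kb did not differ beyond their spread, and E2f7 followed at 4.06 ± 0.31, within the spread of E2f5. The order in the middle depended on the length used. By the mean length of coding transcripts, E2f8 (35.1 CPM per kb) and E2f1 (34.8) could not be separated. E2f6 then moved up the order to 21.6 CPM per kb and E2f7 to 11.5, since their annotated exons together are much longer than their coding transcripts. E2f4 stayed first at 62.6 and E2f5 last at 3.44 CPM per kb.

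**Figure D2:**
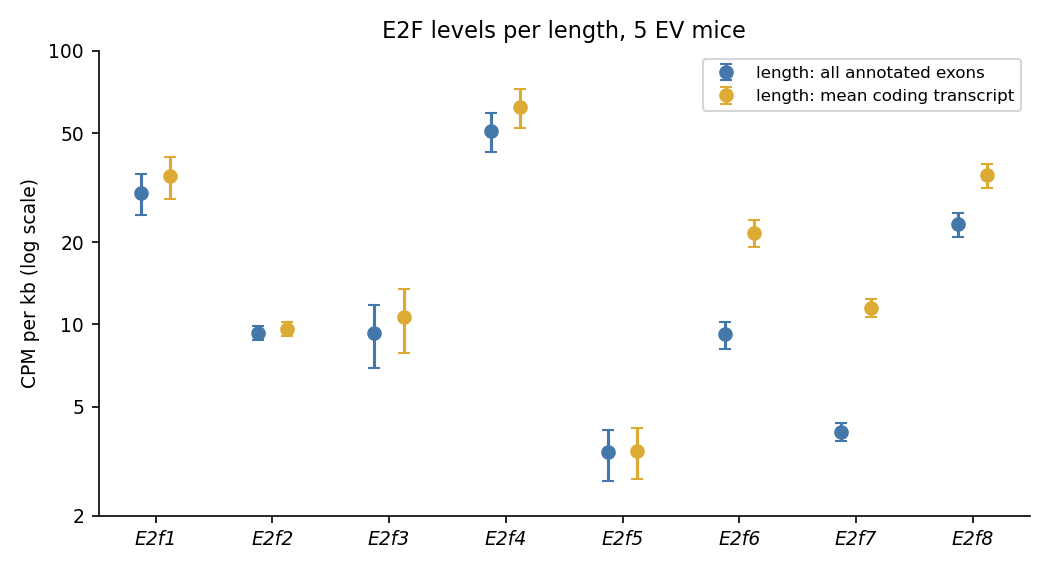
Level of each E2F gene per kilobase (CPM per kb, log axis) as the mean and SD of the 5 EV mice, with length taken as all annotated exons (blue) or as the mean coding transcript (yellow). E2f4 is highest and E2f5 lowest with both lengths, and E2f6 and E2f7 move most between them.

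E2f6, the Polycomb-linked repressor, had the largest difference of the 8 in size and the smallest p. Its U12-type intron is printed above, but 0 introns of E2f2, E2f3, E2f4 and E2f5 could be read. The intron therefore does not set E2f6 apart from the other members. E2f6 lies on chromosome 12 at 16810965 to 16826743, plus strand. Its level in EV mice 1 to 5 was 56.0, 54.5, 42.2, 51.2 and 56.6 CPM, and in sgZrsr2 mice 1, 2, 3 and 5 it was 40.6, 33.0, 41.5 and 49.9 CPM. The groups overlapped through EV mouse 3, the low library of its group, and sgZrsr2 mouse 5, the high one of its own. The means were 52.1 ± 5.91 CPM (SD, n = 5) and 41.3 ± 6.91 CPM (SD, n = 4), so that sgZrsr2 stood at 79.2% of EV. The log2 fold change was -0.34 (SE 0.14, 95% interval -0.64 to -0.03), with an edgeR unadjusted p of 0.0335 and an adjusted p of 0.714. In the exact permutation test of its CPM the two-sided p was 0.0317, not adjusted over genes. By p it ranked 679 of 14944 genes. Leaving out each library in turn gave log2 fold changes of -0.44 to -0.25, and the unadjusted p was above 0.05 in 6 of the 9 leave-outs (adjusted p 0.595 to 0.976 over the 9). Without EV mouse 3 or without sgZrsr2 mouse 5 the groups no longer overlapped, as for 5.4% and 7.1% of all genes in those comparisons. This follows from the values above, since the overlap ran through those libraries, and is no support for a difference. Without mouse 3 of both groups, a comparison chosen after seeing the data, E2f6 and E2f8 did not overlap, as for 7.64% of all genes. EV mouse 5 and sgZrsr2 mice 3 and 5 had the highest mean log2 CPM of erythroid and megakaryocyte markers. Without these 3 libraries the log2 fold change of E2f6 was -0.46. The groups then did not overlap, as for 23.2% of all genes in that smaller comparison. Gene sums do not show whether the printed intron was retained, which was not analysed here.

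Among other genes with an intron beginning with the U12-type letters, no common direction was seen. Of 153 such genes without the E2F members, a list formed after the files were seen, 137 were tested, and 59 were higher and 78 lower in sgZrsr2, with a median log2 fold change of -0.03 beside -0.01 over all genes. The unadjusted p was under 0.05 for 11 (9 higher and 2 lower), a share near the 6.85% of all genes, and 0 passed the adjusted threshold. Named after their values were seen, the 2 lower genes were Spc24, a kinetochore gene (log2 fold change -0.52), and Mcts1, a translation factor gene (-0.38). Of the 9 higher genes, the 2 with the smallest p were Atg9a, an autophagy gene (0.37), and Mysm1, a histone deubiquitinase gene (0.35).

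Of the activators, E2f1 and E2f2 had lower means in sgZrsr2 and E2f3 a higher one, all with overlapping groups. E2f1 (chromosome 2, 154559407 to 154569892, minus strand) stood at 75.5, 84.7, 118, 96.4 and 103 CPM in EV mice 1 to 5. In sgZrsr2 mice 1, 2, 3 and 5 E2f1 stood at 82.1, 82.8, 64.3 and 96.5 CPM. Its lowest library was sgZrsr2 mouse 3 and its highest EV mouse 3. The means were 95.6 ± 16.6 CPM (SD, n = 5) and 81.4 ± 13.2 CPM (SD, n = 4), with a log2 fold change of -0.23 (SE 0.15, 95% interval -0.57 to 0.11, edgeR adjusted p = 0.737). It was -0.13 without sgZrsr2 mouse 3, -0.15 without EV mouse 3, -0.05 without both, and -0.06 in limma-voom.

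E2f2 (chromosome 4, 136172394 to 136196057, plus strand) was the steadiest member within EV, at 40.9, 46.8, 47.7, 46.3 and 45.9 CPM. In sgZrsr2 it was at 32.7, 42.3, 40.1 and 44.4 CPM. All 4 sgZrsr2 mice lay below the EV mean of 45.5 ± 2.69 CPM (SD, n = 5), yet 2 of them lay above EV mouse 1. The sgZrsr2 mean was 39.9 ± 5.11 CPM (SD, n = 4), the log2 fold change -0.19 (SE 0.11, 95% interval -0.44 to 0.06), the edgeR adjusted p 0.722 and the two-sided exact permutation p 0.0476, not adjusted over genes. Without EV mouse 1 the log2 fold change of E2f2 was -0.23, while without sgZrsr2 mouse 1 it was -0.11. The groups did not overlap without EV mouse 1, as for 4.86% of all genes, which follows from the values above.

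E2f3 (chromosome 13, 29906575 to 29985668, minus strand), whose promoter stretch is printed above, had its 2 highest libraries in mouse 5 of either group. It was at 40.6, 47.9, 44.3, 47.0 and 73.6 CPM in EV and at 55.1, 46.1, 51.3 and 63.4 CPM in sgZrsr2. Both mouse 5 libraries were among the 3 with the highest mean log2 CPM of erythroid and megakaryocyte markers. The part of that in the E2f3 level was not tested. The log2 fold change was 0.09 (SE 0.18, 95% interval -0.30 to 0.48, edgeR adjusted p = 0.904), with 0.27 when EV mouse 5 and 0.0041 when sgZrsr2 mouse 5 was left out.

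The pocket-bound repressors differed little between the groups. E2f4 (chromosome 8, 105297663 to 105305369, plus strand) was at 97.2, 109, 142, 139 and 136 CPM in EV and at 122, 106, 103 and 128 CPM in sgZrsr2. All 4 sgZrsr2 values fell inside the EV range, and the log2 fold change was -0.12 (SE 0.14, 95% interval -0.42 to 0.19, edgeR adjusted p = 0.830). Leaving out 1 library gave -0.19 (without EV mouse 1) to -0.07 (without sgZrsr2 mouse 3). E2f5 (chromosome 3, 14578671 to 14606308, plus strand) was the scarcest member, with 118 to 284 counts per library. It stood at 7.80, 6.17, 6.42, 4.24 and 5.73 CPM in EV and at 6.72, 4.72, 6.91 and 4.15 CPM in sgZrsr2, so the groups covered nearly the same range. Its interval was the widest of the 8, from -0.65 to 0.43 around a log2 fold change of -0.11 (SE 0.24, edgeR adjusted p = 0.914).

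For both atypical repressors, sgZrsr2 mouse 3 was the lowest of the 9 libraries. E2f7 (chromosome 10, 110745439 to 110787384, plus strand) was at 35.6, 37.3, 39.3, 32.2 and 38.4 CPM in EV and at 42.1, 37.5, 29.0 and 37.3 CPM in sgZrsr2. The sgZrsr2 group held both the highest library, mouse 1, and the lowest, mouse 3. The means of 36.6 ± 2.81 CPM (SD, n = 5) and 36.5 ± 5.42 CPM (SD, n = 4) were almost the same, and the 95% interval of the log2 fold change ran from -0.28 to 0.28 (edgeR adjusted p = 0.994).

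E2f8 (chromosome 7, 48866429 to 48881596, minus strand) was at 119, 131, 108, 136 and 137 CPM in EV. In sgZrsr2 mice 1, 2, 3 and 5 E2f8 was at 160, 153, 104 and 157 CPM. In sgZrsr2, 3 libraries therefore lay above every EV library and mouse 3 lay below every one. The log2 fold change was 0.18 (SE 0.14, 95% interval -0.13 to 0.50, edgeR adjusted p = 0.757) with means of 126.2 ± 12.5 CPM (SD, n = 5) and 143.4 ± 26.6 CPM (SD, n = 4). It was 0.12 without sgZrsr2 mouse 1. Without sgZrsr2 mouse 3 it was 0.31 with an edgeR unadjusted p of 0.0200, beside 4.94% of all genes under 0.05 in that comparison. The groups then did not overlap, as for 4.11% of all genes, which follows from the values above. That library stood out by the E2f8 values themselves, so neither result is support for a difference. The counts of E2f8 were whole in 3 of 9 libraries, which means that some of its reads were shared with other loci, and those of the other 7 members were whole in all 9. Annotated genes overlap E2f3 (Gm11365), E2f5 (1810022K09Rik), E2f7 (1700020G17Rik) and E2f8 (Gm2788), and the strand setting of the counting is not given. The whole counts of E2f3, E2f5 and E2f7 show no sign of reads divided with another gene. Whether reads of the overlapping genes were counted for these members was not tested.

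The genes for the 2 DP partners of E2F proteins differed in opposite directions, and none of the partner genes passed the adjusted threshold. Of the 5 genes for DP and pocket proteins, 4 were higher and 1 lower in sgZrsr2, 3 had an unadjusted p under 0.05, and the median log2 fold change was 0.18, beside 51.5% of all genes lower and 6.85% under 0.05. Without sgZrsr2 mouse 3, 2 of the 5 were under 0.05 (4.94% of all genes) and the median was 0.29. Without EV mouse 3, 2 were (7.44% of all genes) and the median was 0.12. Without both libraries 1 was (7.83% of all genes) and the median was 0.23. Tfdp1, which encodes the main DP partner, was at 197, 208, 260, 255 and 242 CPM in EV and at 166, 170, 150 and 217 CPM in sgZrsr2. All sgZrsr2 libraries but mouse 5 lay below all of EV. The log2 fold change of Tfdp1 was -0.40 (SE 0.14, 95% interval -0.70 to -0.10, edgeR unadjusted p = 0.0134, adjusted p = 0.714).

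Tfdp2, the second DP gene, was at 81.3, 73.6, 57.2, 53.5 and 70.9 CPM in EV and at 107, 98.4, 88.3 and 78.8 CPM in sgZrsr2. Here too mouse 5 was the sgZrsr2 library that overlapped EV, while the other 3 lay above it. The log2 fold change of Tfdp2 was 0.47 (SE 0.14, 95% interval 0.15 to 0.79, edgeR unadjusted p = 0.00826, adjusted p = 0.714). The ratio of Tfdp2 to Tfdp1 within a library was 0.413, 0.355, 0.220, 0.210 and 0.293 in EV and 0.642, 0.579, 0.589 and 0.364 in sgZrsr2. Only sgZrsr2 mouse 5 fell in the EV range, and the means were 0.298 ± 0.087 (SD, n = 5) and 0.543 ± 0.123 (SD, n = 4; two-sided exact permutation p = 0.0317). This ratio was chosen after the values of the 2 genes were seen. On the log2 scale it differed by 0.88 between the groups, or by 0.77 to 1.06 with 1 library left out. The exact permutation p was 0.029 to 0.071 over the 9 leave-outs and above 0.05 in 7. With 1 library fewer, this test falls under 0.05 only at its most extreme split, so that count does not show how firm the ratio is.

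Rbl2, which encodes p130, had means of 69.6 ± 15.5 CPM (SD, n = 5) in EV and 90.1 ± 7.79 CPM (SD, n = 4) in sgZrsr2. Its counts were whole in 0 of 9 libraries, and the log2 fold change was 0.37 (SE 0.17, edgeR unadjusted p = 0.0478, adjusted p = 0.714). Leaving out 1 library gave 0.25 to 0.44, and the lowest library was EV mouse 3 at 45.5 CPM. Rbl1, which encodes p107, had a log2 fold change of 0.18 (SE 0.15) and Rb1, the retinoblastoma gene, of 0.10 (SE 0.12), with overlapping groups.

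**Figure D3:**
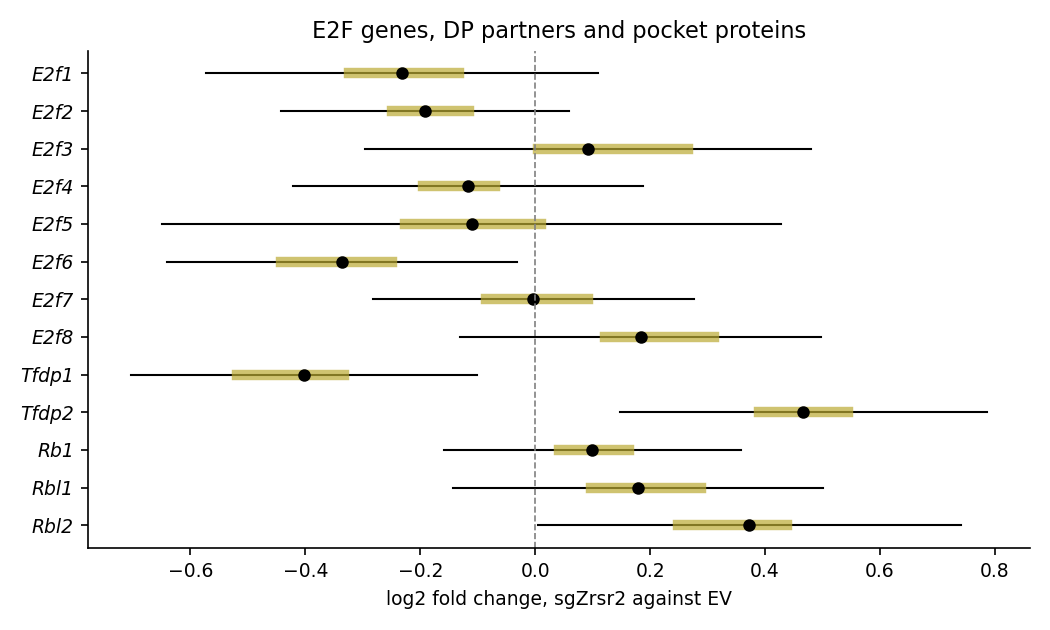
Log2 fold change of sgZrsr2 against EV (horizontal axis) for the 8 E2F genes, the DP genes and the pocket protein genes: points are edgeR estimates over 9 libraries, thin lines their 95% intervals, and thick bars the range over 9 fits that each leave out 1 library. Of the E2F genes, E2f6 alone has an interval that stays below 0, and its adjusted p is 0.714.

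Within a library, E2f8 stood higher relative to E2f1 in every sgZrsr2 mouse. The ratio of E2f8 to E2f1 in CPM was 1.58, 1.54, 0.911, 1.41 and 1.33 in EV and 1.95, 1.84, 1.61 and 1.63 in sgZrsr2. The groups did not overlap, with sgZrsr2 mouse 3 at the low end of its group and EV mouse 3 well below the rest of EV. The means were 1.36 ± 0.27 (SD, n = 5) and 1.76 ± 0.16 (SD, n = 4), and the two-sided exact permutation p was 0.0159. It was the 1 of the 28 ratios between members whose groups did not overlap, and it is shown for that reason. That is a share near the 2.73% of the ratios of all gene pairs, so it does not set the members apart. The permutation p adjusted over the 28 by Benjamini-Hochberg was 0.444. The ratios were added after the files were seen, and on the log2 scale E2f1 to E2f8 differed by -0.40 between the groups, or by -0.46 to -0.26 with 1 library left out.

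**Figure D4:**
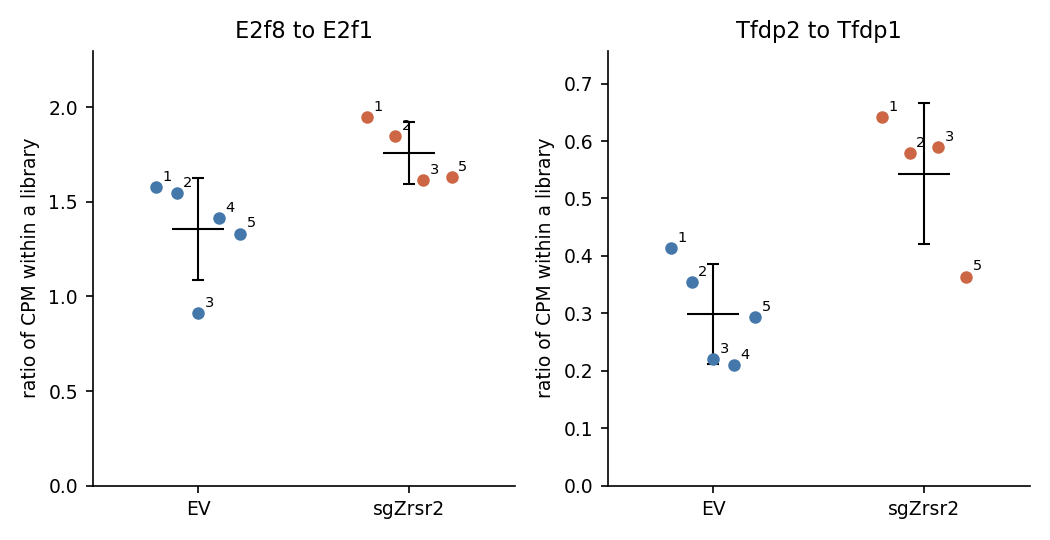
Ratio of CPM within each library (vertical axes from 0) of E2f8 to E2f1 on the left and of Tfdp2 to Tfdp1 on the right, with mouse numbers beside the points and black lines for the mean and SD of 5 EV and 4 sgZrsr2 mice. The E2f8 to E2f1 ratio does not overlap between the groups, and the Tfdp2 to Tfdp1 ratio overlaps through sgZrsr2 mouse 5.

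Across the 9 libraries, E2f1 and E2f4 varied together most closely among the members. Pearson's r of their log2 CPM was 0.87 (permutation p = 0.00206, 0.058 adjusted over 28 pairs) and Spearman's rho was 0.88 (permutation p = 0.00308, 0.086 adjusted). Without EV mouse 3 and sgZrsr2 mouse 3, the libraries farthest from the median of E2f1, r was 0.89, and with group means removed it was 0.87. Of the 28 pairs 18 had a positive r and 0 passed the adjusted threshold. The libraries share their depth scaling and cell makeup, so r describes these libraries only.

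By the same measure over 9 libraries, the genes most like each member were sought among the 9623 genes that averaged 10 CPM or more. E2f1 was most like Sf3b3 (r = 0.97), a splicing factor gene, and Gm12481 (0.97). For E2f2, Aamp is given (0.91), and E2f3 was most like Alg10b (0.91) and Unc119 (0.89). E2f4 followed Rnf187 and Slc35a4 (both 0.96), and E2f5 followed Trp53i11 (0.91) and Ccdc117 (0.88). E2f6 was most like Gpsm2 and the recombination gene Rad54b (both 0.96), E2f7 most like Whsc1 (0.95) and Mapk1ip1l (0.94), and E2f8 most like Thy1 (0.97) and Myl12b (0.91). These are the highest of many values from 9 points and carry no test.

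Genes that E2Fs are known to switch on at the start of DNA synthesis mostly had lower values in sgZrsr2, 0 of them past the adjusted threshold, and the lean rested largely on sgZrsr2 mouse 3. Of the 36 genes listed for G1 and S phase, 31 were lower and 5 higher, and the median log2 fold change was -0.16 beside -0.01 over all genes. An unadjusted p under 0.05 was reached by 3, all lower, where 2.98% of all genes were. Among them were Ezh2, the Polycomb methyltransferase, with means of 156.5 ± 13.0 CPM (SD, n = 5) and 115.5 ± 24.9 CPM (SD, n = 4) and a log2 fold change of -0.44 (SE 0.15), and Dck, deoxycytidine kinase (-0.23, SE 0.09). Dck, named after its values were seen, was the 1 of the 36 whose groups did not overlap, no larger a share than the 3.06% of all genes. The list's mean log2 CPM was 6.96, 7.05, 7.21, 7.19 and 7.17 in EV and 7.14, 7.08, 6.54 and 7.05 in sgZrsr2, so that sgZrsr2 mouse 3 lay far below the other 8 libraries and the other 3 sgZrsr2 mice lay within EV. Without sgZrsr2 mouse 3, 22 of the 36 were lower (61.1%, beside 54.7% of all genes) and the median was -0.05. Without EV mouse 5 and sgZrsr2 mice 3 and 5, 18 of the 36 were lower and the median was -0.01, and limma-voom also gave a median of -0.01. Ezh2 had an unadjusted p under 0.05 in both of these smaller comparisons.

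**Figure D5:**
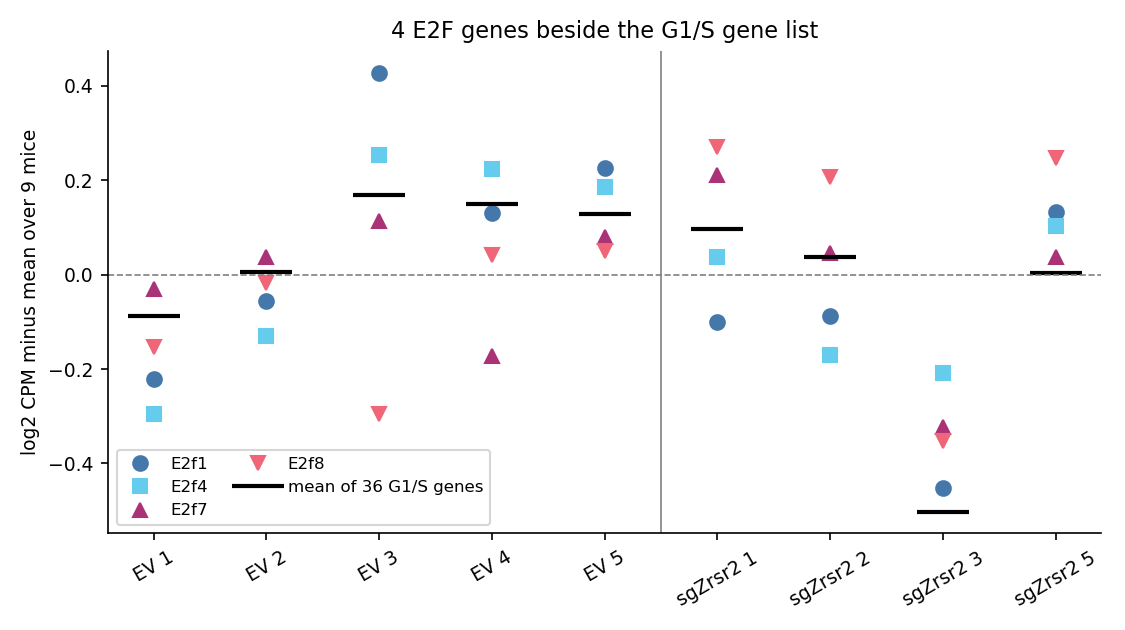
Deviation of log2 CPM from its mean over 9 mice (vertical axis) for E2f1, E2f4, E2f7, E2f8 and the mean of 36 G1 and S phase genes, per library; the grey vertical line separates EV from sgZrsr2. All 5 are below their mean in sgZrsr2 mouse 3, and in EV mouse 3 E2f8 is low while E2f1 is high.

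The same library had a high mean log2 CPM of erythroid and megakaryocyte markers, as had EV mouse 5 and sgZrsr2 mouse 5. The mean log2 CPM of the 7 erythroid markers tested was 0.69, 0.80, 0.69, 0.81 and 3.95 in EV and 0.34, 0.94, 4.76 and 4.07 in sgZrsr2. Summed, the 8 erythroid markers found of 10 listed held 278 to 491 CPM in EV and 221 to 397 CPM in sgZrsr2. The 10 megakaryocyte markers held 159 to 359 and 253 to 576 CPM. The erythroid sums did not set the same libraries apart. They were 294 CPM in EV mouse 5, 397 in sgZrsr2 mouse 3 and 283 in sgZrsr2 mouse 5, against 491 in EV mouse 3. Tfrc, an erythroid marker, held most of each sum and ran from 180 CPM in sgZrsr2 mouse 5 to 486 CPM in EV mouse 3. Neutrophil genes were high in sgZrsr2 mouse 3 and EV mouse 5: the 10 markers summed to 221 and 187 CPM, against 21.5 to 87.9 CPM in the other 7. None of these markers was at 0 in all libraries. In the test, 6 of 7 erythroid and 9 of 9 megakaryocyte genes had higher values in sgZrsr2, beside 7246 of all 14944 genes. Of them 0 passed the adjusted threshold. The 1 erythroid gene with an edgeR unadjusted p under 0.05 was lower in sgZrsr2, where 6.85% of all genes were under 0.05 in either direction. The part of these lineage genes in the values of the E2F genes and their targets was not tested.

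Of 20 G2 and M phase genes, 15 were lower and 5 higher, with a median log2 fold change of -0.08, beside 51.5% of all genes lower. Birc5, which encodes survivin, was at 73.3 ± 6.50 CPM (SD, n = 5) in EV and 62.1 ± 5.23 CPM (SD, n = 4) in sgZrsr2. Its log2 fold change was -0.24 (SE 0.10, edgeR adjusted p = 0.714). The groups did not overlap, as for 3.06% of all genes (two-sided exact permutation p = 0.0159). They nearly touched, with sgZrsr2 mouse 1 at 66.65 CPM, the highest of its group, and EV mouse 1 at 66.66 CPM, the lowest of its own. Cdca8, which encodes borealin, a partner of survivin in the chromosomal passenger complex, had a log2 fold change of -0.27 (SE 0.10), with 3 of 4 sgZrsr2 mice below all of EV. These 2 were the genes of the list with an unadjusted p under 0.05, both lower, where 2.98% of all genes were lower at that level. Without EV mouse 3, 19 of the 20 were lower, 7 had an unadjusted p under 0.05 (7.44% of all genes did) and the median was -0.20, and without sgZrsr2 mouse 3 the count at that level was 0. The median was also -0.18 without sgZrsr2 mouse 5, and nearer 0 without EV mouse 2 (-0.03) or EV mouse 5 (-0.04).

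Of the cyclins, kinases and inhibitors that set the state of the pocket proteins, 13 of 15 were tested, 5 were higher and 8 lower, and the median was -0.14. Ccnd1, cyclin D1, was the 1 with an unadjusted p under 0.05, a share near the 6.85% of all genes. It stood at 101.3 ± 19.9 CPM (SD, n = 5) in EV and at a mean of 76.6 CPM (n = 4) in sgZrsr2, with a log2 fold change of -0.40 (SE 0.14, edgeR adjusted p = 0.714). The 4 sgZrsr2 values lay close together, between 75.2 and 78.4 CPM, and EV mouse 4 at 73.5 CPM was below them all. Ccne1, cyclin E1, had a log2 fold change of -0.41 (SE 0.22). Without EV mouse 3 the median of these genes was 0.05.

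With all libraries, the complexes that E2F proteins join showed no gene at an edgeR unadjusted p under 0.05. Of 6 genes of the MuvB core and its partner B-MYB, 4 were higher and 2 lower, with Lin52 at a log2 fold change of 0.33 (SE 0.22) and Mybl2, the B-MYB gene, at -0.27 (SE 0.26). Of 8 genes of the Polycomb complex that contains E2F6, 5 were higher and 3 lower, with Pcgf6 at -0.25 (SE 0.16) and Cbx3 at -0.19 (SE 0.18). Of 8 apoptosis genes known as E2F targets, 7 were tested, 4 were higher and 3 lower, and the median was 0.00, with Pmaip1 at -0.21 (SE 0.35) and Casp8 at 0.05 (SE 0.10). Of 7 germline genes known to be silenced through E2F6, 2 were expressed enough to test. Slc25a31 was at no more than 2.68 CPM (log2 fold change 1.05, SE 1.44), and Stag3 had means of 18.2 ± 4.04 CPM (SD, n = 5) and 19.7 ± 7.03 CPM (SD, n = 4), with a log2 fold change of 0.12 (SE 0.25).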

How the data were processed

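Each library started from 5 ng of RNA, with polyA selection, a NEBNext Ultra II kit and PCR, per the labels' protocols. The authors deposited RSEM expected counts per gene, not normalized; per the submitters' processing notes, cutadapt 1.11, RSEM 1.2.30 and GRCm38 were used. The aligner, annotation and strandedness are not given in the sources used here. RSEM divides reads that match several genes, and 9.78% to 13.3% of values per library were not whole.

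Expected counts were rounded, filtered with filterByExpr (minimum count 10, minimum total 15; 14944 genes with 99.93% of counts), scaled by TMM (factors 0.894 to 1.07) and tested with edgeR 4.0.16 (glmQLFit, glmQLFTest; R 4.3.3), adjusted by Benjamini-Hochberg over all genes at a threshold of 0.05. The SE is the log2 fold change divided by the square root of F, and intervals cover 95%. Levels are TMM CPM; log2 CPM used a prior count of 2. Single values were compared by two-sided exact permutation over all splits of 9 libraries into 5 and 4. The fit was tested on simulated data. The labels number the mice, so p-values measure the spread between mice. PCR reads without molecular identifiers are not independent molecules.

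The E2F genes, the gene lists (from general knowledge) and the tests were chosen with earlier results of these data known. Named genes were the 8 members, Zrsr2, the DP and pocket protein genes, the 2 of smallest p in each other list, and the 2 most like each member; some results that this rule selects are not reported here. Gene coordinates are those of the deposited table; exon lengths, introns and overlaps come from GENCODE M21, whose coordinates were identical for 4 of the 8. Protein sequences were not used here. Alternatives were RLE and upper-quartile factors, 2 other filters, DESeq2 1.42.0, limma-voom (limma 3.58.1), robust dispersion, a block by mouse number, sgZrsr2 mice 1 and 2 averaged, and leaving out libraries.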

Additional observations from a re-analysis of the deposited data

Results flagged for a closer look

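In 11 of 72 groups of named genes and lists, 1 mouse stood apart from the rest of its group by Dixon's criterion, where chance gives about 1 in 20, or 3.6. Among the E2F genes these were E2f2 in EV mouse 1 at 40.9 CPM (the other EV mice 45.9 to 47.7), E2f3 in EV mouse 5 at 73.6 CPM (others 40.6 to 47.9) and E2f8 in sgZrsr2 mouse 3 at 104 CPM (others 153 to 160). Among the partners, Rb1 stood at 28.5 CPM in EV mouse 4 and Rbl2 at 78.5 CPM in sgZrsr2 mouse 5. EV mouse 3 was apart 5 times: Zrsr2 at 62.2 CPM, Ezh2 at 134 CPM, Pmaip1 at 67.9 CPM, Slc25a31 at 2.12 CPM, and a mean log2 CPM of 6.58 for the cyclins, kinases and inhibitors. The mean log2 CPM of the G1 and S phase genes was 6.54 in sgZrsr2 mouse 3, against 7.05 to 7.14 in the other sgZrsr2 mice.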

How the results depend on the processing

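No E2F gene passed the adjusted threshold under any of 20 other settings, 2 of them chosen after seeing the data. Over all genes, 0 passed in edgeR, 16 (0.107%) in DESeq2 and 1 with sgZrsr2 mice 1 and 2 averaged. The number of members whose groups do not overlap, 0 as reported, ranged from 0 to 1 over the leave-outs of 1 library: 1 without EV mouse 1 (E2f2), EV mouse 3 (E2f6), sgZrsr2 mouse 3 (E2f8) or sgZrsr2 mouse 5 (E2f6). In each case the library left out was one through which the groups of that gene overlapped. The number was 2 (E2f6 and E2f8) without EV mouse 3 and sgZrsr2 mouse 3, where 7.64% of all genes did not overlap, and 2 (the same pair) without EV mouse 5 and sgZrsr2 mice 3 and 5. After removing group means, 1 pair of members (E2f1 and E2f4) had a correlation past the adjusted threshold. Its r was 0.87, as without that step. The permutation exchanged the centred values across groups, which can make its p too small, so passing the threshold is no firmer evidence. E2f1, E2f2, E2f3, E2f6 and E2f8 kept their direction under all 20.

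The direction changed for genes near 0. With limma-voom, E2f4 was at 0.036, E2f7 at 0.032, Mybl2 at 0.16 and Pmaip1 at 0.10. E2f7 ranged from -0.085 to 0.091 over the leave-outs, with 0.0036, 0.019 and 0.016 without EV mouse 2, 3 and 5 and 0.091 without sgZrsr2 mouse 3, and was 0.11 and 0.15 without the pair and the trio of libraries above. Over the same leave-outs E2f5 ranged from -0.23 to 0.011 (without sgZrsr2 mouse 5), Casp8 from -0.022 (without sgZrsr2 mouse 2) to 0.094, and Slc25a31 from -0.24 (without sgZrsr2 mouse 2) to 1.47, with no value without EV mouse 3. Pmaip1 ranged from -0.37 to 0.22 (without EV mouse 3), and Stag3 from -0.065 (without sgZrsr2 mouse 5) to 0.26, with -0.0084 without sgZrsr2 mouse 3. The causes were not tested.

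Mice with the same number in both groups did not deviate together (r = -0.23, -0.09, -0.40 and 0.37 for numbers 1, 2, 3 and 5), so the numbers were not taken to pair mice. With the mouse number as a replicate block, 0 genes and 0 members passed, 341 genes had an unadjusted p under 0.05 in place of 1024, and E2f6 was at -0.35 with an unadjusted p of 0.0658.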
